A study of Danio rerio with 2 samples.

Results

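The 8 genes described here are neurod1, neurod2, neurod4, neurod6a, neurod6b, sox11a, sox11b and insm1a, chosen by name as transcription factors of neuronal differentiation. All 8 were found among the 25435 features of both count matrices, and each was carried by 1 Ensembl gene identifier. They were followed in 4091 cells of the control library and 3231 cells of the knockout library. A barcode counted as a cell when it held 1000 or more unique molecular identifiers (UMIs, each standing for 1 captured RNA molecule) and 500 or more genes, with no more than 15% of its UMIs mitochondrial. Of the 8 genes, 7 had at least 200 UMIs over both libraries, and neurod4 had 1 UMI.

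The study sorted cells that use the gpr85 locus out of dissociated adult zebrafish brain and read them by 3 prime droplet RNA sequencing, to compare fish with and without gpr85, which encodes an orphan G-protein-coupled receptor. The control library came from gpr85Gal4/+ fish, with 1 Gal4 allele at gpr85, and the knockout library from gpr85GAL4/GAL4 fish, with 2. Both libraries therefore carried a Gal4 insertion at the locus, and no fish without it was included. Brains were dissociated with papain, dead cells were gated out with Sytox Red, and 50000 eGFP-positive cells were sorted for each condition. The number, age beyond adult and sex of the fish, and any pooling of them, were not given in the sources used here.

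NeuroD proteins are basic helix-loop-helix activators that bind E-box DNA together with E proteins, and they follow the early proneural factors that commit a progenitor to a neuronal fate. NeuroD1 is needed in mouse for cerebellar granule cells to differentiate and survive, NeuroD2 acts later in neuron maturation and synapse formation, and NeuroD6 marks pyramidal neurons of the mouse cortex. Sox11, Sox4 and Sox12 form the SoxC group of HMG-box factors, which switch on pan-neuronal genes in newly formed neurons, and Insm1 is a zinc-finger repressor of neurogenic and endocrine progenitors. Zebrafish carry a pair of genes for neurod6, sox11, sox4 and insm1, and reads that match both genes of a pair could be split or dropped in counting, which cannot be seen in the deposited counts.

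Each genotype had 1 library, so every comparison below is between these libraries and not between genotypes, and no test was possible. Levels are given in CPM, the UMIs of a gene scaled by all UMIs of the same population. Intervals are exact 95% intervals that cover counting error only and treat UMIs as independent, so they are too narrow where a few cells hold many UMIs of a gene. The median kept cell held 2585 control or 2844 knockout UMIs, and shares of cells with a UMI were therefore compared after thinning every cell to 1000 UMIs. Of the kept barcodes, 8 occurred in both libraries. The targeted gene itself, gpr85, had 1993 control and 1215 knockout UMIs, a log2 ratio of -0.42 (-0.52 to -0.32). Barcodes with under 100 UMIs, which hold mostly free RNA, made up 24.4% of control and 29.0% of knockout UMIs.

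Cells were gated by markers that are not among the 8 genes. Granule-like cells carried at least 2 of cbln12, gabra6a, gabra6b, vamp1, barhl1a, barhl1b and gabrd and met none of the other gates. They numbered 2012 in the control library and 2008 in the knockout library. Within them, 195 and 130 cells also carried at least 2 of the immature markers hhip, cntn2, nhlh2 and mex3b. The granule markers left out of the gate, fat2, zic1 and slc17a7a, together stood at 3507 and 3738 CPM in granule-like cells and at 346 and 586 CPM in GABAergic neuron-like cells. They were also high in ungated cells, at 3145 and 3291 CPM, so the gate did not collect all cells with a granule profile. The granule gate was not a sharp boundary, since 896 control and 855 knockout granule-like cells had exactly 2 of its marker genes, and 843 and 572 cells had 1. Other gates were set by pairs of genes and are called by them: gsg1l/lmx1al (499 and 160 cells), galn/pvalb7 (141 and 44 cells) and uts1/otofa (64 and 41 cells). The left-out granule markers were also high in the gsg1l/lmx1al gate, at 3291 and 3490 CPM, and in the galn/pvalb7 gate, at 2856 and 3053 CPM. Those 2 gates were thus not clearly set apart from granule-like cells. The uts1/otofa gate had 716 and 762 CPM. GABAergic neuron-like cells numbered 85 and 32, and habenula neuron-like cells 27 and 81.

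The 7 genes with enough UMIs did not all follow the same gate. Neurod1 was high in the granule-like, gsg1l/lmx1al and galn/pvalb7 gates. Neurod2 was highest in the granule-like gates, and neurod6a and neurod6b in the galn/pvalb7 gate. Sox11a was highest in GABAergic neuron-like cells, sox11b in granule-like cells with immature markers, and insm1a in the gsg1l/lmx1al gate. For 6 of the 7 genes with enough UMIs the same gate was highest in both libraries, with neurod1 as the exception. It was 5 of 7 with clusters in place of gates, where sox11b also differed, and with doublets removed, where insm1a also did.

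**Figure D1:**
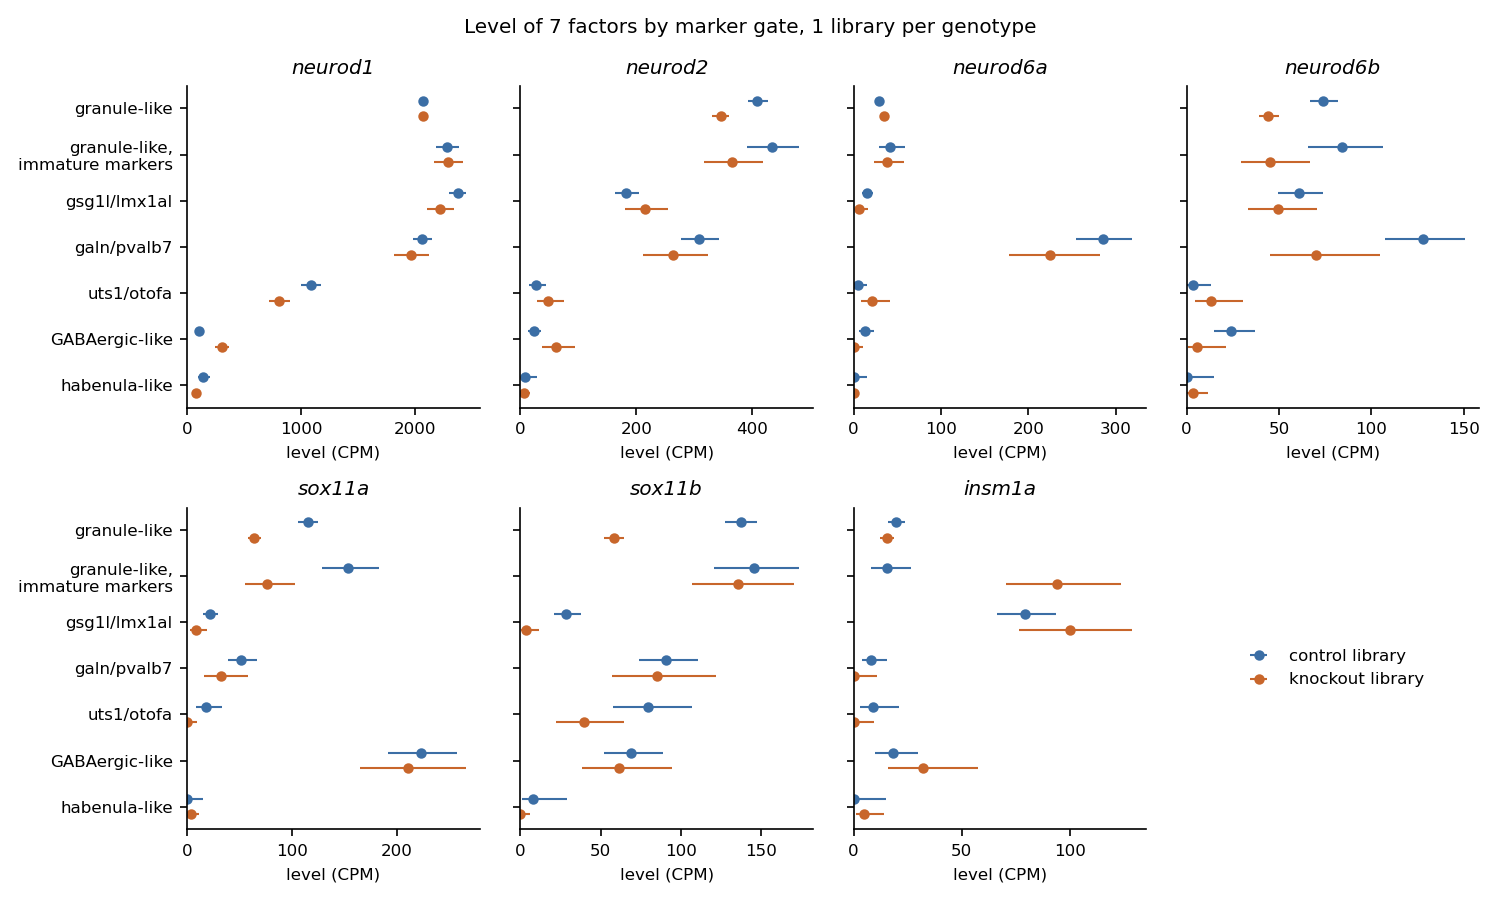
Level of each of 7 genes (CPM, a separate scale for each gene) in 7 marker gates, for the control and knockout libraries, with exact 95% Poisson intervals; granule-like cells with immature markers are shown apart from the others. Neurod6a peaks in the galn/pvalb7 gate at 286 and 225 CPM and insm1a in the gsg1l/lmx1al gate at 79.1 and 100.2 CPM, and in the high insm1a value of the immature granule gate of the knockout library 34 of 52 UMIs came from 1 cell.

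Neurod1 (ENSDARG00000019566), the factor that drives granule cell differentiation in mouse, was detected in most granule-like cells. It stood at 2101 CPM from 12970 UMIs in the control and at 2093 CPM from 13774 UMIs in the knockout library, a log2 ratio of -0.01 (-0.04 to 0.03). The median granule-like cell held 5 neurod1 UMIs in either library, and at 1000 UMIs a cell 77.9% and 77.0% of the cells had one. Levels lay in a narrow band over the gates with a high sum of granule markers. The gsg1l/lmx1al gate had 2378 and 2222 CPM, the immature granule gate 2288 and 2291 CPM, and the galn/pvalb7 gate 2068 and 1967 CPM. The order of these gates was not settled, since their intervals overlapped in the knockout library except those of galn/pvalb7 and the immature granule gate.

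Neurod1 was lower in the uts1/otofa gate and in GABAergic and habenula neuron-like cells. The uts1/otofa gate had 1084 CPM (999.5 to 1175) in the control library and 806 CPM (719 to 902) in the knockout library, with no overlap of the intervals. Habenula neuron-like cells had 141 and 80.4 CPM, and 7.41% and 2.47% of them had a neurod1 UMI at 1000 UMIs a cell, although their median depths of 8951 and 7360 UMIs were above those of granule-like cells, 2683 and 2929.5. Microglia-like cells, which should lack the gene, gave 1 cell of 15 and 1 cell of 18 after thinning. Free RNA held 1794 and 1615 CPM of neurod1. In GABAergic neuron-like cells neurod1 stood at 98.8 and 302 CPM, and granule markers of the gate moved with it, at 372 and 557 CPM. In the GABAergic neuron-like cells with fewer than 2 granule marker genes, a restriction chosen after seeing the data, neurod1 stood at 77.3 and 19.3 CPM, so the higher knockout value came from cells with both sets of markers.

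Neurod2 (ENSDARG00000016854), which acts in maturing neurons, ranked the gates differently from neurod1. It had 413 and 347 CPM in granule-like cells and 434 and 366 CPM in those with immature markers. In the gsg1l/lmx1al gate neurod1 was at least as high as in granule-like cells. Neurod2 had 183 CPM (163 to 204) there in the control library and 215 CPM (180 to 255) in the knockout library. Both values lay below the granule-like levels beyond counting error. The galn/pvalb7 gate was between them, at 309 and 263 CPM, and the uts1/otofa gate had 27.1 and 47.1 CPM from 15 and 18 UMIs. Between the libraries neurod2 was slightly lower in the knockout granule-like cells, with a log2 ratio of -0.25 (-0.33 to -0.17), and 34.3% against 27.4% of cells had a UMI at equal depth. Either neurod1 or neurod2 was seen in 84.4% and 82.4% of granule-like cells after thinning.

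Neurod4 (ENSDARG00000003469), a related factor of early neurogenesis, had 0 UMIs in the control cells and 1 UMI, in an ungated cell, in the knockout cells. A count of 0 over 4091 cells allows a level of up to 0.218 CPM and a share of up to 0.0733% of cells with a UMI. No further value could be given for it.

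Neurod6a (ENSDARG00000040008) and neurod6b (ENSDARG00000020794), the zebrafish pair related to mouse NeuroD6, were detected in a minority of cells. After thinning, 8.48% of control cells and 6.13% of knockout cells had a UMI of either gene. Neurod6a had its highest level in the galn/pvalb7 gate, which held 315 of its 752 control UMIs and 77 of its 370 knockout UMIs. There it stood at 286 CPM (255 to 319) and 225 CPM (178 to 282), and 74.5% and 56.8% of the cells had a UMI at full depth, or 24.8% and 18.2% at 1000 UMIs. Granule-like cells had 30.5 and 34.95 CPM of neurod6a, from 188 and 230 UMIs. In the knockout library they thus held more neurod6a UMIs than the galn/pvalb7 gate. Habenula neuron-like cells had 0 UMIs of neurod6a in both libraries.

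Neurod6b was spread more evenly. It had 128 and 70.2 CPM in the galn/pvalb7 gate, 75.3 and 44.2 CPM in granule-like cells, and 60.8 and 49.3 CPM in the gsg1l/lmx1al gate. Its interval in the galn/pvalb7 gate of the knockout library, from 24 UMIs, was 45.0 to 105 CPM and overlapped the granule-like level, so only the control library separated these gates. Within the galn/pvalb7 gate at full depth, 64.8% (54.8 to 73.8) of control cells with neurod6a also had neurod6b, against 25% (12.12 to 42.2) of those without. In the knockout library these shares were 52.0% (31.3 to 72.2) and 26.3% (9.15 to 51.2), and the intervals overlapped. At 1000 UMIs a cell the gate held 5 control cells with both genes, where independence gave 3.72, and 0 knockout cells, where it gave 0.909, so the association was not detectable at that depth.

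Sox11a (ENSDARG00000077811) and sox11b (ENSDARG00000095743), the SoxC pair, were seen in all the granule-like gates but in a minority of cells. In granule-like cells sox11a stood at 120 CPM from 741 UMIs in the control and at 65.0 CPM from 428 UMIs in the knockout library. Sox11b stood at 138 CPM from 853 UMIs and at 64.7 CPM from 426 UMIs. After thinning, 18.2% (16.5 to 19.9) of control granule-like cells and 9.31% (8.08 to 10.7) of knockout ones had a UMI of either gene. In microglia-like cells, which should lack them, both genes had 0 UMIs in 15 control cells, with a median depth of 4340 UMIs, and in 18 knockout cells, with a median of 9486. The exact upper limits of these shares are 21.8% and 18.5%. Habenula neuron-like cells, with 27 and 81 cells, had 0 and 2 UMIs of sox11a and 2 and 0 UMIs of sox11b.

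Among clusters with at least 50 cells in each library, sox11a and sox11b were both highest in the same granule-like cluster, as given below. Among the marker gates, they differed in where they were highest. Sox11a was highest in GABAergic neuron-like cells, at 223 CPM (192 to 257) and 211 CPM (165 to 266), above its level of 153 CPM (128 to 182) and 76.0 CPM (54.8 to 103) in the immature granule gate. The GABAergic sums rested on 185 and 72 UMIs, with up to 30 and 18 UMIs in 1 cell. Restricting these cells to those with fewer than 2 granule marker genes gave 223 and 329 CPM. Sox11b was not raised in GABAergic neuron-like cells, at 68.7 and 61.5 CPM. In the control library its level in the immature granule gate, 145 CPM (120 to 173), overlapped that of the other granule-like cells, 137 CPM (127 to 147). In the uts1/otofa gate sox11b had 79.4 and 39.3 CPM, while sox11a had 10 and 0 UMIs. Both genes were low in the gsg1l/lmx1al gate, where sox11a had 36 and 5 UMIs and sox11b 48 and 2.

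Insm1a (ENSDARG00000091756), a zinc-finger repressor of progenitors, followed another gate. In the gsg1l/lmx1al gate it had 79.1 CPM (66.3 to 93.7) from 134 control UMIs and 100.2 CPM (76.7 to 129) from 61 knockout UMIs, and 7.01% and 6.88% of the cells had a UMI at 1000 UMIs a cell. In granule-like cells it had 19.1 and 21.9 CPM from 118 and 144 UMIs. The gsg1l/lmx1al gate was low in sox11a and sox11b in both libraries, and its neurod2 level was below that of granule-like cells. The immature granule gate of the knockout library had 52 UMIs of insm1a against 13 in the control. Of those 52 UMIs, 34 lay in 1 cell, which also held 15 UMIs of sox11b, 14 of sox4a and 5 of sox11a among 10117 UMIs. Without the cell highest in insm1a in each library, an alternative chosen after seeing the data, the gate had 12.15 and 33.2 CPM from 10 and 18 UMIs. The related gene insm1b was nearly absent from granule-like cells, with 4 and 11 UMIs, and stood at 61.4 and 96.7 CPM in GABAergic neuron-like cells.

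Between the libraries, 4 of the 7 measured genes were lower in the knockout cells by at least 1.5-fold and none was higher. Of 11064 genes with at least 200 UMIs, 5.59% were lower and 4.18% were higher by that fold, and 9.77% passed it in either direction. Sox11b had 1446 and 613 UMIs over all kept cells, 105 and 54.7 CPM, a log2 ratio of -0.94 (-1.08 to -0.81). Neurod6b had 916 and 416 UMIs and a log2 ratio of -0.84 (-1.02 to -0.68). Sox11a had 1388 and 663 UMIs and a log2 ratio of -0.77 (-0.91 to -0.64). Neurod6a had 752 and 370 UMIs and a log2 ratio of -0.73 (-0.91 to -0.55), which was -0.33 after thinning and -0.30 when both libraries were given the same gate makeup, within the fold. These 4 genes lay between the 1.75th and 3.45th percentile of all genes by their ratio. The median ratio of the 7 genes was -0.73, and that of all genes was -0.03.

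The other 3 genes were within the fold. Over all kept cells neurod1 had 25584 and 19832 UMIs and a log2 ratio of -0.07 (-0.10 to -0.05), neurod2 had 4325 and 3205 UMIs and -0.14 (-0.20 to -0.07), and insm1a had 356 and 264 UMIs and -0.14 (-0.37 to 0.10). The interval of insm1a includes no difference. The makeup of the libraries moved with these ratios, since granule-like cells were 49.2% of control and 62.1% of knockout cells, and the gsg1l/lmx1al gate held 499 and 160 cells. Free RNA was lower in the same genes, with sox11a at 84.5 and 43.7 CPM, sox11b at 85.8 and 49.99, neurod6a at 69.0 and 37.1, and neurod6b at 76.0 and 36.5. With the estimated free RNA subtracted, the ratios were -0.95 for sox11b, -0.77 for sox11a, -0.84 for neurod6b and -0.72 for neurod6a. With the same gate makeup in both libraries, those of sox11b, sox11a and neurod6b were -0.99, -0.80 and -0.74. In a sum over cells, fewer cells of a type and less RNA per cell cannot be told apart.

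**Figure D2:**
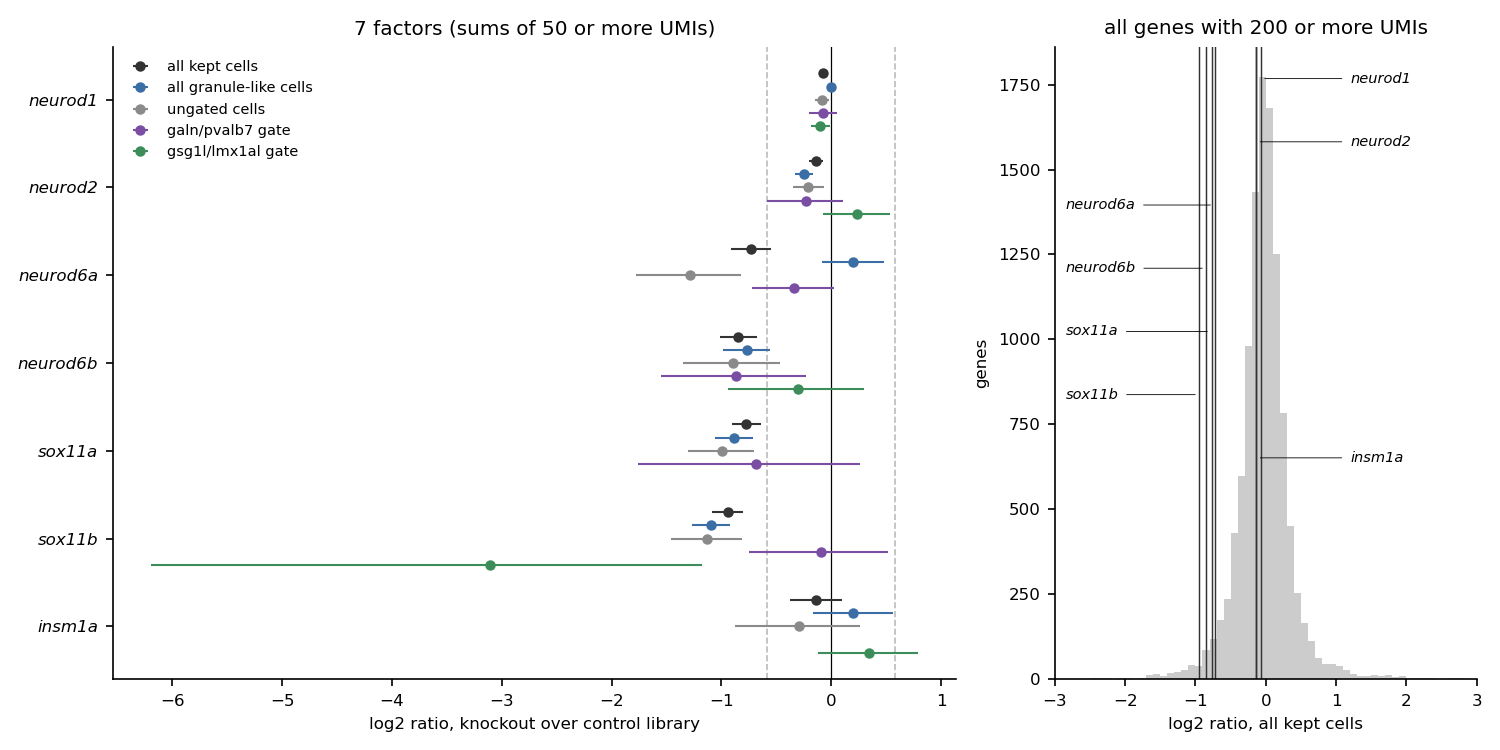
Left, log2 ratio of knockout over control CPM for the 7 genes in all kept cells and in 4 gates, for sums of at least 50 UMIs, with exact 95% intervals and dashed lines at 1.5-fold. Right, the same ratio for 11064 genes with the 7 genes as lines; sox11b, neurod6b, sox11a and neurod6a lie in the lower tail, from -0.94 to -0.73.

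Within granule-like cells 3 of the 7 genes were lower by the same fold, where 5.79% of 10491 genes were lower and 4.6% higher. The log2 ratio was -1.09 (-1.27 to -0.92) for sox11b, a level 2.13-fold lower, then -0.88 (-1.06 to -0.71) for sox11a and -0.77 (-0.98 to -0.55) for neurod6b. The granule-like cells of the libraries were spread differently over clusters, and the ratio of sox11a depended on it, as given with the clusters. Neurod6a, lower over all kept cells, was not lower in granule-like cells, with a log2 ratio of 0.20 (-0.09 to 0.48). For sox11b, 11.5% (10.1 to 13.0) of control and 4.73% (3.84 to 5.75) of knockout granule-like cells had a UMI after thinning. For sox11a the shares were 8.85% (7.64 to 10.2) and 5.08% (4.16 to 6.13). The summed levels of several marker lists moved the same way in these cells. The 4 immature markers had 278 and 188 CPM, oligodendrocyte lineage markers 201 and 145, the subtype genes pax2a, pax5 and en1a 104 and 72.2, and gsg1l with lmx1al 65.3 and 26.9. The immature markers did not move as a group. Hhip had 166 and 81.8 CPM, while nhlh2 had 46.5 and 48.0 and cntn2 had 24.9 and 28.3. GABAergic markers had 21.9 and 15.8 CPM. Other lists moved less, with radial glia markers at 39.5 and 34.2 CPM, microglia markers at 19.1 and 19.0 and cycling markers at 47.0 and 48.3. The subtype genes nr2f1a, matn4 and etv4 went the other way, at 70.8 and 132 CPM, and so did SYT2, kcnj3b and scn4ba, at 114 and 135 CPM. The part of these lists in the ratios was not tested. The gpr85 level moved the same way, with a log2 ratio of -0.57.

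The size of the difference varied among gates. In ungated cells, neurod6a, sox11b, sox11a and neurod6b were lower, with log2 ratios of -1.29 (-1.78 to -0.82) for neurod6a, -1.13 (-1.46 to -0.81) for sox11b, -0.996 (-1.30 to -0.70) for sox11a and -0.90 for neurod6b, where 6.24% of 7465 genes were lower and 3.76% higher. The neurod6a ratio in ungated cells rested on 165 control and 49 knockout UMIs, and 40 of the 165 lay in 1 cell of 14563 UMIs. That ratio was not computed without this cell. Without the cell highest in neurod6a in each library the ratio over all kept cells was -0.69. In the immature granule gate, sox11a was lower, with 128 and 42 UMIs and a log2 ratio of -1.01 (-1.55 to -0.50), where 6.55% of 3069 genes were lower and 4.04% higher. Sox11b was not, with 121 and 75 UMIs and -0.10 (-0.53 to 0.33), although 12.3% and 5.38% of its cells had a UMI after thinning. Of these sox11b UMIs, 14 of the 121 and 15 of the 75 lay in 1 cell of each library, the cell highest in insm1a. The sox11b ratio without those cells was not computed. In the galn/pvalb7 gate, with only 44 knockout cells, neurod6a had a log2 ratio of -0.34 (-0.72 to 0.02) and neurod6b of -0.86 (-1.55 to -0.23). The cluster of mostly galn/pvalb7 cells, built without the 8 genes, held 234 and 88 cells. Its log2 ratios were -0.60 (-0.95 to -0.26) for neurod6a and -0.84 (-1.38 to -0.33) for neurod6b. In the gsg1l/lmx1al gate none of the 4 genes with at least 100 UMIs, neurod1, neurod2, neurod6b and insm1a, passed the fold, where 7.95% of 4605 genes were lower and 4.43% higher. The sox11 genes had fewer UMIs there, and their log2 ratios were -3.11 (-6.19 to -1.18) for sox11b and -1.37 (-3.08 to -0.02) for sox11a.

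Granule-like cells were also grouped by 4 sets of 3 subtype genes, and a cell counted when it carried at least 2 genes of a set. Sox11a was highest in the control cells of the nr2f1a, matn4 and etv4 subtype, at 226 CPM, and stood at 27.3 CPM in the knockout cells. Its log2 ratio was -3.05 (-4.19 to -2.02), from 31 and 11 UMIs in 27 and 75 cells. In that subtype sox11b had 14 and 7 UMIs and a log2 ratio of -2.55 (-4.10 to -1.15). In the subtype with SYT2, kcnj3b and scn4ba, sox11b had 188 and 116 CPM. Sox11a had 73.9 and 82.5 CPM there, from 24 and 34 UMIs, a log2 ratio of 0.16 (-0.64 to 0.98). Larger clusters with some of these leading genes did not show so wide a contrast for sox11a. Cluster 5, with etv4 among its leading genes and 190 and 367 cells, had -0.62 (-1.15 to -0.07). Cluster 1, led by SYT2, scn4ba and kcnj3b and with 429 and 459 cells, had -0.37 (-0.77 to 0.02). For neurod2 the subtype with phldb1a, kcnd3 and inhbb had 435 and 436 CPM. Differences between subtypes in these ratios were not tested.

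Clusters built without the 8 genes were used beside the gates. In the 9 clusters of at least 50 cells in each library whose gated cells were mostly granule-like, sox11a was lower in the knockout library in 9 of 9 clusters, with the interval below 0 in 5, and sox11b in 7 of 9, with the interval below 0 in 6. Neurod6b was lower in 7 of 9, with 4 intervals below 0, and neurod6a in 2 of 9, with none. Neurod1 and neurod2 were also lower in 9 of 9 clusters, with 5 and 4 intervals below 0. Their differences were small, at -0.30 to -0.04 for neurod1 and -0.56 to -0.05 for neurod2. The clusters split the same libraries and are not replicates. The share of all genes lower in as many clusters was not computed. Both sox11 genes were highest in cluster 3, whose leading genes included jag1a, creb5b and sox4a, with 377 and 317 CPM of sox11a and 352 and 206 CPM of sox11b. That cluster held 432 control and 78 knockout cells, while cluster 9 held 181 and 536, so the granule-like cells of the libraries lay in different clusters. Within cluster 3 the log2 ratio was -0.25 (-0.66 to 0.14) for sox11a and -0.77 (-1.27 to -0.30) for sox11b. The cluster of mostly GABAergic neuron-like cells had 164 and 208 CPM of sox11a and 61.7 and 65.3 of sox11b. Both genes were thus lower there than in cluster 3. Summed over the 9 clusters, sox11a had a log2 ratio of -0.99 and sox11b of -1.17. With the same cluster makeup in both libraries, an alternative chosen after seeing the data, these became -0.52 for sox11a, within the fold, and -0.93 for sox11b, while neurod6b had -0.68 and -0.77. Smaller granule-like clusters were left out of these ratios, among them cluster 14 with 36 control and 216 knockout cells.

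**Figure D3:**
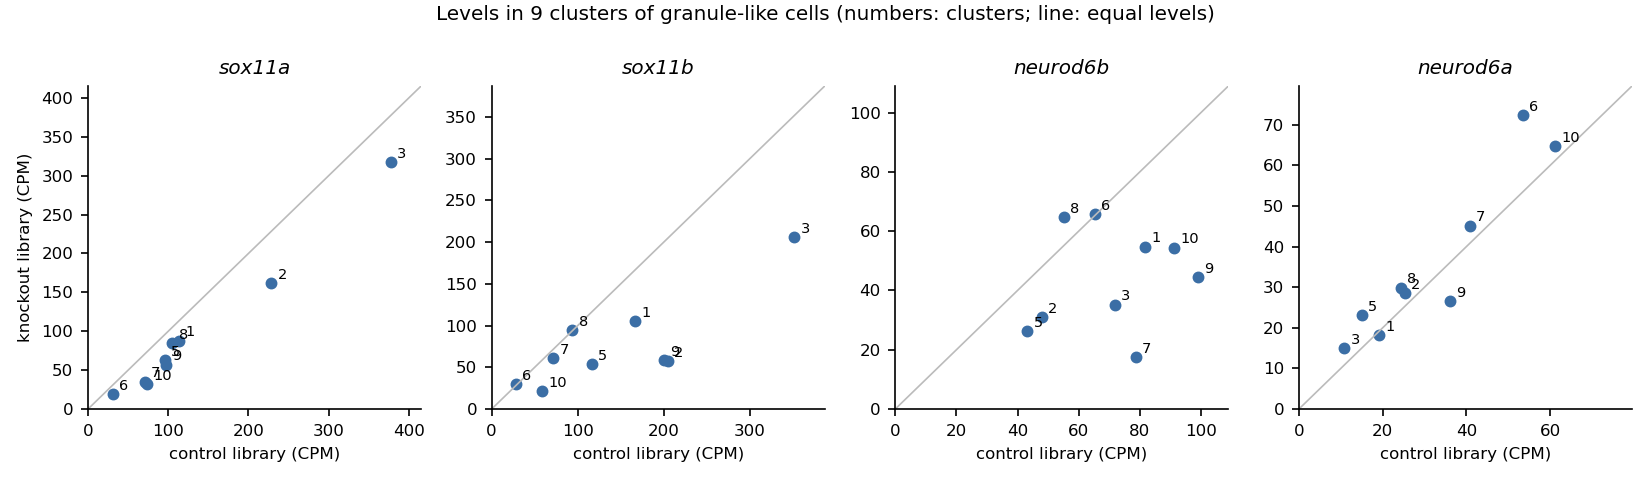
Level (CPM) in the knockout against the control library for sox11a, sox11b, neurod6b and neurod6a, 1 point for each of 9 granule clusters, with the line of equal levels. All 9 points of sox11a and 7 of 9 of sox11b and neurod6b lie below the line, and 2 of 9 of neurod6a.

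Which of these genes were seen in the same cells was asked over 28 pairs in granule-like cells, at 1000 UMIs a cell. The pairs were formed among the 7 genes with enough UMIs and between each of them and sox4a, and neurod4 was left out. Sox11a and sox11b were seen together more often than independence gives. In the control library 43 cells had both, where 20.4 were expected, and in the knockout library 10 had both, where 4.83 were expected, ratios of 2.104 and 2.07. Of cells with sox11a, 24.2% (18.1 to 31.1) in the control and 9.80% (4.802 to 17.3) in the knockout library also had sox11b. The knockout interval overlapped that of sox11b over all granule-like cells, given above. At this depth only the control library separated these shares. The ratio to expectation was about equal in the libraries, while both genes were seen in fewer knockout cells. Neurod1 and neurod2 were close to independence, with 559 cells where 538 were expected in the control library and 444 where 425 were expected in the knockout library.

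Neurod6a and the sox11 genes were seen together in few cells. Neurod6a and sox11a shared 0 control cells where 4.07 were expected and 3 knockout cells where 3.05 were expected. Neurod6a and sox11b shared 1 control cell where 5.28 were expected and 4 knockout cells where 2.84 were expected, so the libraries did not show the same pattern. At full depth, granule-like cells with a neurod6a UMI had 51.4 CPM of sox11a against 127 in the others in the control library, and 53.9 against 66.1 in the knockout library.

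The level of each sox11 gene was also higher in cells with the other. Sox11b stood at 267 CPM in cells with sox11a and 110 in cells without it in the control library, and at 141 and 54.3 in the knockout library. Sox4a, another SoxC gene, stood at 165 and 61.0 CPM in control cells with and without sox11a and at 77.0 and 28.9 in knockout cells. In cells with and without insm1a, sox4a stood at 163 and 74.8 CPM in the control library and at 149 and 27.7 in the knockout library. Of the 54 control UMIs behind the value of 163 CPM, 35 lay in 1 cell. Without the cell highest in sox4a in each library, an alternative chosen after seeing the data, the values were 59.4 and 74.8 CPM in control cells, which turned the direction, and 111 and 27.7 in knockout cells. The level of neurod1 hardly depended on sox11a, at 1994 and 2124 CPM in the control library and 1985 and 2108 in the knockout library. Cells with a UMI of a gene are chosen partly for depth, and all UMIs of a cell share its library.

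**Figure D4:**
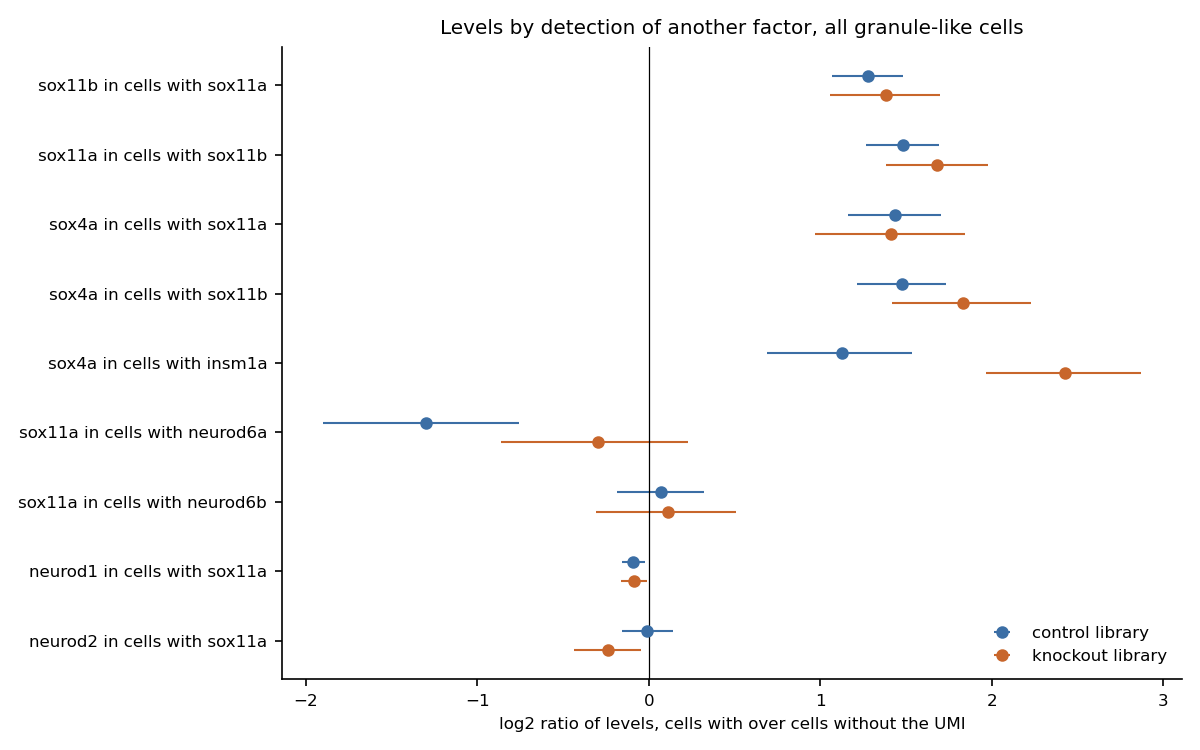
Log2 ratio of the level of one gene in granule-like cells with over those without a UMI of another, for 9 pairs in both libraries, with exact 95% intervals. The sox11a, sox11b and sox4a pairs lie above 0 in both libraries and the neurod1 pair near 0; the control value of sox4a in cells with insm1a rests on 1 cell.

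Among 57 genes of the related lists, 3 were at least 1.5-fold higher in both libraries in granule-like cells with sox11a or sox11b, and none was lower, where 0.647% of 7886 genes were higher and 0.431% lower. Sox4a had 145 against 44.8 CPM in the control library and 75.5 against 23.2 in the knockout library, and sox4b had 65.1 against 22.6 and 32.5 against 17.1. Marcksl1a, a substrate of protein kinase C in growing neurites, was the other, with 37.6 against 20.4 CPM and 109 against 14.6. Of its UMIs in these cells, 22 of 81 in the control library and 52 of 157 in the knockout library came from 1 cell, and without those cells the log2 ratios were 0.44 (-0.07 to 0.94) and 2.34. With insm1a, map1b, marcksl1a and sox4a were past the fold upward and ebf3a downward, where 1.94% of genes were higher and 1.69% lower. These rest on few control UMIs. The control log2 ratio was 0.73 (-0.18 to 1.52) for marcksl1a, from 14 UMIs with 8 in 1 cell, and -0.84 (-2.07 to 0.16) for ebf3a, from 8 UMIs, so both intervals include no difference. Map1b had 0.82 (0.16 to 1.42) in the control and 0.79 (0.26 to 1.27) in the knockout library. Without the cell highest in it in each library, these were 0.67 (-0.03 to 1.30) and 0.57 (-0.003 to 1.09). The knockout value was then within the fold, and both intervals included no difference. Sox4a rested on the control cell described above. With neurod6b, gap43, a growth cone protein, was higher and marcksl1a lower, where 0.33% and 0.304% of genes passed, and without the cell highest in gap43 its knockout log2 ratio was 0.51, within the fold. With neurod6a, gap43 was the only listed gene past the fold, at 117 against 45.7 CPM and 55.6 against 36.1, where 0.748% and 1.05% passed, and its knockout log2 ratio was 0.31 (-0.34 to 0.90) without the cell highest in gap43.

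The related lists held 139 genes of neurogenesis, of which 133 were in the matrices and 77 had at least 200 UMIs. A few symbols, among them sox4a, meis2a, ebf3a and her4.2, stood on 2 rows of the matrices, which were summed. Over all kept cells 8 of the 77 were lower and 11 higher by 1.5-fold, beside the 5.59% and 4.18% of all genes given above, and their median log2 ratio was -0.02. The lower genes included sox4a and sox4b of the SoxC group, whose remaining gene, sox12, was higher (1.25). Sox4a had 80.0 and 46.2 CPM and a log2 ratio of -0.79, and sox4b had 35.8 and 21.4 CPM and -0.74. Stmn1b, a microtubule regulator, had 2556 and 1654 CPM and a log2 ratio of -0.63, and gap43 had 152 and 68.1 CPM and -1.15. Of 23 listed effectors of immature neurons, 4 were lower and none was higher, with a median of -0.16. The others that were lower were marcksl1b (-0.67), the hedgehog-binding gene hhip (-0.75), meis2a (-0.83) and eomesa (-1.13).

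Of 7 measured Notch genes, 4 were higher over all kept cells and none was lower by the fold. They were the receptor gene notch3 (1.65), the ligand gene jag1b (0.68) and the target genes her4.1, with 10 and 372 UMIs, and her4.2 (3.68). The other 3 were numb (0.21), mib1 (-0.13) and jag2b (-0.53), within the fold. Among E proteins and their Id inhibitors 3 of 8 were higher, namely id1 (2.00), id3 (1.07) and id4 (1.119), among other Sox genes sox2 (1.59) and sox12 (1.25) were higher, and so were lhx9 (0.65) and prox1a (0.69) in the remaining lists. Markers of radial glia moved with these, at 115 CPM summed in the control library and 653 in the knockout library, and the radial glia-like gate, which used some of these genes, held 8 and 18 cells. In granule-like cells her4.1 had 0 and 3 UMIs, sox2 0 and 5, and notch3 3 and 0. The early proneural genes were nearly absent, with 1 and 1 UMIs of atoh1a, 2 and 8 of neurog1 and 9 and 10 of ascl1a. Other factors of neuronal differentiation, nhlh2 (0.11), hes6 (0.34), scrt2 (0.02) and myt1a (-0.29), did not pass the fold.

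**Figure D5:**
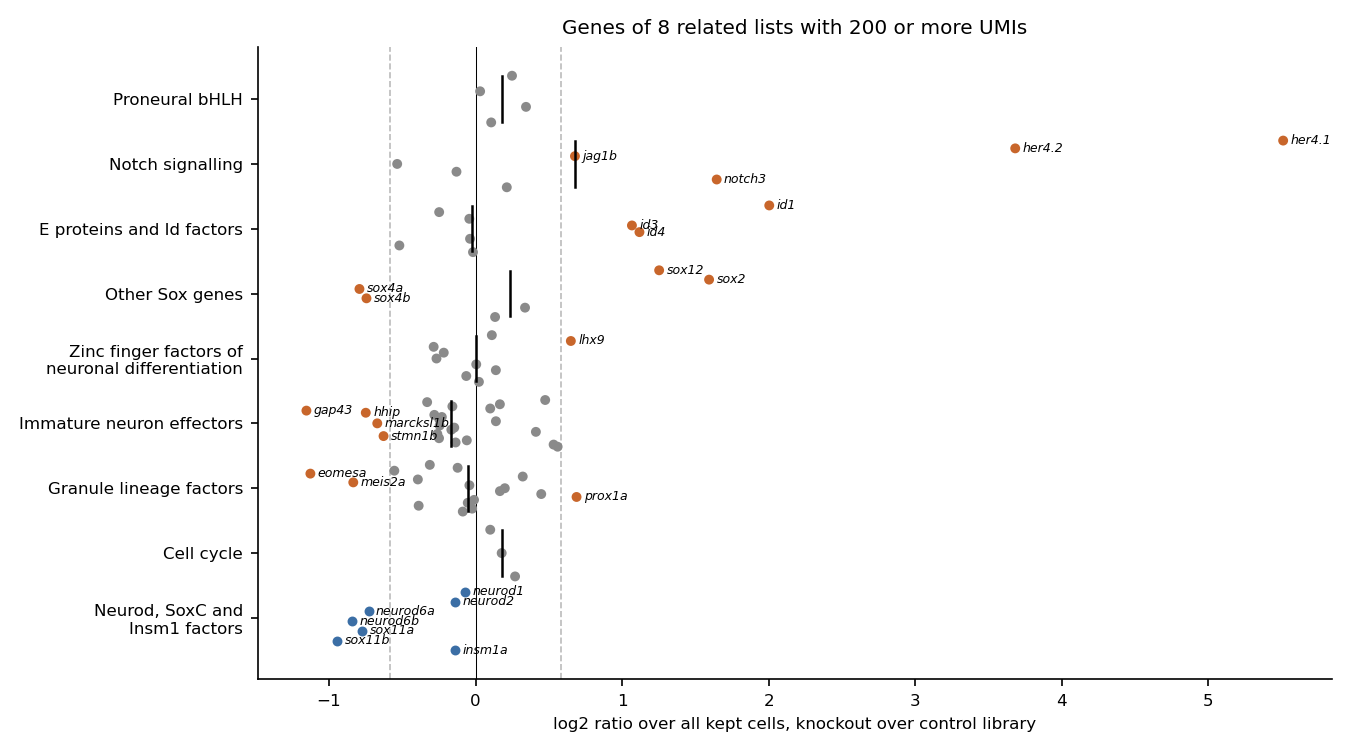
Log2 ratio of knockout over control CPM over all kept cells for 77 related genes by list, with the list medians. Genes past 1.5-fold whose interval excludes 0 are named; the Notch list lies higher, with a median of 0.68, and the list of immature neuron effectors has a median of -0.16.

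Within granule-like cells 66 of the listed genes could be measured, and 5 were lower and 6 higher, with a median of 0.01, beside 5.79% lower and 4.6% higher of all genes. Of 23 immature neuron effectors, 2 were lower and 4 higher here. The lower genes were the Notch ligand gene jag1a (-1.64), sox4a (-1.20), hhip (-1.03), sox4b (-0.87) and marcksl1b (-0.66). The higher genes were tmsb (1.71), tubb5 (1.15), dpysl5a (1.05), bhlhe23 (0.96), tubb2b (0.64) and id4 (0.64). Of the SoxC genes, sox11a, sox11b, sox4a and sox4b were thus lower in the sum over knockout granule-like cells. Sox12 had only 6 and 13 UMIs there and was not measured. Sox4a and jag1a were leading genes of cluster 3, which held 432 control and 78 knockout cells. Within it sox4a had a log2 ratio of -0.52 (-1.07 to -0.02). Over the 9 granule clusters sox4a was lower in 8, with 4 intervals below 0, and its ratios ran from -2.34 to 0.78. Ratios of sox4a, sox4b and jag1a with equal cluster makeup were not computed.

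The genes whose levels were most like those of the 7 were looked for over 14 profiles, each a gate in 1 library, among 11018 genes that were not gate markers. These profiles share their libraries and differ in depth, so the correlations are a description. Neurod1 was most like dtnbp1a (Pearson r = 0.99), nebl and tob1b (0.97 each), and neurod2 most like crtac1b (0.99), qkia and znf385b (0.98). Neurod6a was most like tcap (0.97), crlf3 (0.95) and hs6st3a (0.92), and neurod6b most like pcsk6, kcnh4b (0.96 each) and mtcl1 (0.95). Sox11a was most like the potassium channel gene kcnc1b (0.96), KCNIP1 (0.95) and lrrc4.1 (0.94). Sox11b was most like mtmr10 (0.95), PLCB1 (0.94) and thsd7ab (0.91), and insm1a like gadd45gb.1 (0.91), nt5dc3 (0.90) and LO018287.1 (0.89). No gene was named for both sox11a and sox11b.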

How the data were processed

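The deposited values are whole-number UMI counts per gene and barcode, written by Cell Ranger 7.1.0 per the file headers; GRCz11 and Seurat are named per the submitters' processing notes. No cell filter had been applied to the barcodes. From these counts, cells were kept as stated above and gated by marker genes, and UMIs were summed per library and gate. The granule gate and its immature part needed at least 2 marker genes, with no further minimum of UMIs. Other gates needed at least 2 marker genes and 3 UMIs, or 3 genes and 5 UMIs for glia. Cells in several gates other than the granule gate, 22 control and 9 knockout cells, were set aside. A cell that met the granule gate and a single other gate was counted in that other gate. Doublets were not otherwise removed. Free RNA was estimated at 2.43% and 2.73% of UMIs in granule-like cells.

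Ratios are log2 of knockout over control CPM with exact conditional binomial intervals; CPM sums carry Poisson and shares Clopper-Pearson intervals. A gene was called past the fold at 1.5-fold, over genes with at least 200 UMIs in all cells or 100 in a gate. A gene at 0 was given a limit of 3 counts. Levels for likeness were log2(CPM + 10). With 1 library per genotype no test was made. The 8 genes, the gates and the lists were chosen with earlier results of these data known. All 8 genes were named, as were the 3 genes most like each of 7, and the listed genes past 1.5-fold whose interval excluded 0. Computation used Python 3.11.15 with numpy 2.4.6, scipy 1.17.1, pandas 2.3.3, scanpy 1.11.5 and matplotlib 3.10.9, and the ratio and co-detection steps were tested on simulated counts.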

Additional observations from a re-analysis of the deposited data

Results flagged for a closer look

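For 3 of the genes the knockout library was higher in some gates or granule subtypes and lower in others, each with an interval that excludes 0. The difference between gates was not tested, and many combinations of gene and gate were looked at. The log2 ratio of neurod1 was 1.61 in GABAergic neuron-like cells, against -0.10 in the gsg1l/lmx1al gate, -0.084 in ungated cells, -0.43 in the uts1/otofa gate, -0.81 in habenula neuron-like cells and -0.28 in the SYT2, kcnj3b and scn4ba subtype. Neurod2 had 1.43 in GABAergic neuron-like cells, from 19 and 21 UMIs, against -0.24 in granule-like cells without immature markers, -0.21 in ungated cells, -0.45 in the SYT2 subtype and -0.53 in the nr2f1a, matn4 and etv4 subtype. Neurod6a had 0.68 (0.003 to 1.37) in the phldb1a, kcnd3 and inhbb subtype, from 34 and 44 UMIs, against -1.29 in ungated cells. Of the 165 control UMIs in ungated cells, 40 lay in 1 cell. The cluster with phldb1a, inhbb and kcnd3 among its leading genes, of 302 and 319 cells, had 0.44 (-0.13 to 1.02). In GABAergic neuron-like cells neurod6a had 11 and 0 UMIs. In the cluster of mostly such cells neurod6a had 97 and 1 UMIs, 72.2 and 1.98 CPM, a log2 ratio of -5.19 (-10.5 to -2.68). Granule markers in GABAergic neuron-like cells, at 372 and 557 CPM, moved with neurod1 and neurod2 there. In such cells with fewer than 2 granule marker genes neurod1 stood at 77.3 and 19.3 CPM, and for neurod2 their part was not tested. The cluster of mostly GABAergic neuron-like cells, with 162 and 52 cells, gave neurod1 the opposite direction, with 372 and 59 UMIs and a log2 ratio of -1.25 (-1.67 to -0.85).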

How the results depend on the processing

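Over 208 alternative settings, 175 values stayed within the limits set for them, 31 moved and 2 reversed. The count of genes lower over all kept cells was 3 to 4 and in granule-like cells 3 to 4. Sox11a, sox11b and neurod6b kept a negative log2 ratio under all of the settings run, but sox11a fell within the fold with equal cluster makeup. In control cells with over without insm1a, the log2 ratios of marcksl1a and sox4a became -0.44 and -0.33 without the cell highest in each, a setting chosen after seeing the data. With genes of at least 50 UMIs in place of 200, 15 of 102 listed genes were lower and 20 higher, beside 8.91% and 7.79% of all genes at that minimum. By rank correlation, 9 of the 21 genes named as most like the 7 were kept. Neurod6a over all kept cells depended on the weighting of cells, with a log2 ratio of -0.27 as a mean over cells beside the values given above. The sign of insm1a was not settled, at 0.19 with equal gate makeup over all kept cells and at -0.72 in granule-like cells with 1 more marker gene required. The causes were not tested. The settings without single cells and the GABAergic restriction were chosen after seeing the data. No replicate could be left out, and depth limits most values under 50 UMIs. No paired analysis was possible because each genotype had 1 library.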
